A study of Mus musculus with 8 samples.

Results

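Glycolysis and the response to low oxygen were followed through 30 genes in mouse dendritic cells, the antigen-presenting cells that take up material while immature and mature when TNFa reaches them. The 37 listed genes hold the glycolytic enzymes and transporters, the enzymes that decide the fate of pyruvate, and hypoxia-inducible factor (HIF) with its regulators and common targets. A gene was taken where a probe set carried its symbol alone, by the brightest such probe set over the 8 arrays, with a Present call (the array software's detection call) on at least 2 arrays. This left 30 of 7578 genes measured by the same rule. P4ha2 had too few Present calls, Hk3, Gpi1, Pfkfb4 and Eno1 matched no probe set under a single symbol, and those of Gapdh and Bnip3l carried several symbols, so these genes were not analysed here. Ero1l was matched under its current symbol, Ero1a.

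RNA came from dendritic cells grown out of hind-leg bone marrow of 9 week old male mice, in SCF, hyperIL-6, Flt-3L, IGF-1, dexamethasone and GM-CSF and then in GM-CSF, which all groups shared. VDRmut mice carry a germline vitamin D receptor mutation that, per the study cited in the labels, removes its DNA-binding domain; VDRwt mice were the controls. On day 7 of differentiation, cells of each genotype received VD3 (the active hormone form of vitamin D, 1e-06 M) 30 min before TNFa (50 ng/ml, 4 h), TNFa alone, VD3 alone, or neither. Each of these 8 conditions was measured on 1 MOE430A array, so no condition has a replicate of its own, and a treatment was tested over its VDRmut and its VDRwt array. Values are linear MAS5 signals, comparable between arrays for a probe set but not between probe sets, and in bulk RNA fewer cells of a type and less RNA per cell cannot be told apart.

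Glycolysis splits glucose into pyruvate, and cells that turn pyruvate into lactate can run it without oxygen. HIF is a transcription factor whose alpha subunit is hydroxylated by prolyl hydroxylases in the presence of oxygen and then degraded; when oxygen falls, or when inflammatory signals raise the subunit, HIF drives many glycolytic genes. Immune stimulation, best studied with Toll-like receptor ligands, is known to raise glycolysis in dendritic cells. HIF binds DNA at a short core, ACGTG or GCGTG, on either strand.

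The 5 promoters shown belong to the members with the largest called log2 changes, in size, in TNFa alone against untreated cells. Each covers the 250 bases before a listed transcription start, where that core was looked for. They come from RefSeq on GRCm38.p6, each is given on the strand of its gene, and capitals mark every core found on either strand. For a gene with several listed starts, the one of lowest coordinate is shown; for Pkm that one lacks the core, which its other listed promoter holds.
Egln3, chr12:54203875-54204124, minus strand: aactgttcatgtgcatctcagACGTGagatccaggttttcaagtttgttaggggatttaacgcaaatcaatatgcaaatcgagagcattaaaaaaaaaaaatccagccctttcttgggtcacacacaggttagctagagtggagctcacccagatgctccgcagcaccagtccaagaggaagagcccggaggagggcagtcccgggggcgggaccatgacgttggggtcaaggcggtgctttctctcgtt
Aldoc, chr11:78322823-78323072, plus strand: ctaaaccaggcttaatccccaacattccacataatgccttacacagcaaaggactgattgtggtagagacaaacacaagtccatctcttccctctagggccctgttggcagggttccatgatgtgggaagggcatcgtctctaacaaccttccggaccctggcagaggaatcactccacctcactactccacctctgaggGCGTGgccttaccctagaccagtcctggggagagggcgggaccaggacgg
Pfkfb3, chr2:11502091-11502340, minus strand: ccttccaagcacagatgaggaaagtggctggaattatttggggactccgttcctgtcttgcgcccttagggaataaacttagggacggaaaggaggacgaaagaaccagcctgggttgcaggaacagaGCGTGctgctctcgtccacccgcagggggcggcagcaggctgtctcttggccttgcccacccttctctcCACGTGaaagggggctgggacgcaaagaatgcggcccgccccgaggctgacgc
Pdk1, chr2:71872974-71873223, plus strand: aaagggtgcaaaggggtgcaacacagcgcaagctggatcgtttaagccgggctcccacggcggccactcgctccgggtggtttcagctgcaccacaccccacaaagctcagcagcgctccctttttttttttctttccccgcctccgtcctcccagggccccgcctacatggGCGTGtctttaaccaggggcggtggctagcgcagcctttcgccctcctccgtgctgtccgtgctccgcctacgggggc
Pkm, chr9:59656326-59656575, plus strand: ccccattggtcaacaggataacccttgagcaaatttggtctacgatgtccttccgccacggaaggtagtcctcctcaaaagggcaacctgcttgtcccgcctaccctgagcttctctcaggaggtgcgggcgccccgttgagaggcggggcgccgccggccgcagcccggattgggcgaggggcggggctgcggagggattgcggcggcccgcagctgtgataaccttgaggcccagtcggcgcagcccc
The Egln3 core starts at base -229 from the start site and the Aldoc core at base -50. Pfkfb3 holds a GCGTG and a CACGTG, a palindrome that is read as ACGTG on both strands and is also the E-box bound by other factors. Of 29 members with a promoter in the table, 27 (93.1%) held at least 1 core in a listed promoter, and Tpi1 and Eno2 did not. The share was 61.5% of 6219 genes tested on the arrays and 41.5% of all 27025 genes in the table. The members were listed for glycolysis and the HIF response, so their higher share is not a finding of these arrays. Among the 13 members called with TNFa alone it was 92.3%, near that of all members. The members' promoters had a median of 19 CG dinucleotides, against 17 over the tested genes, and both core forms contain CG. A match in this window is a description of letters, not of binding.

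Dendritic cell markers were Present on every array, 8 to 10 of 10, so the labelled cell type was seen, though beside markers of other types. On the arrays with TNFa alone, Itgax, the CD11c subunit, gave lower signals (1167.9 in VDRmut and 998.7 in VDRwt) than on the other arrays, where its lowest was 3354.4. Others of the list ran the opposite way there: Cd83 gave 4618.7 in VDRmut and 5481.9 in VDRwt with TNFa alone and at most 1488.2 elsewhere, Cd86 gave 1174.4 and 2172.5 and at most 718.3, Irf8 gave 2290.9 and 3126.5 and at most 1060.8, and Zbtb46 and Flt3 were also highest there. The summed list lay between 27664.2 and 32257.2 with VD3+TNFa, 42683.3 and 45189.8 with TNFa alone, 39506.2 and 47962.7 with VD3, and 34945.0 and 36827.8 untreated. Summed neutrophil granule markers, with 6 to 10 of the list Present on an array, were higher in VDRmut than in VDRwt at every treatment. Their VDRmut and VDRwt sums were 13215.9 and 3573.6 with TNFa alone and 20331.8 and 10486.0 with VD3+TNFa. With VD3 they were 27502.8 and 9677.6, and in untreated cells 31807.9 and 10500.4. Macrophage and monocyte markers, with 5 to 7 of 8 Present on an array, summed to between 5463.1 and 9787.4 over the arrays. Mast cell and basophil markers, at most 2 Present, summed to between 850.5 and 1406.0 with TNFa alone and to at most 627.7 elsewhere. T and NK cell markers had 0 Present calls. The 5' control for 18S rRNA read 6847.0 and 9028.2 on the VDRmut and VDRwt arrays with TNFa alone, and between 3.5 and 224.0 on the others. The ratio of 5' to 3' actin signal was 0.449 for VDRmut VD3+TNFa and 0.444 for VDRmut untreated, against 0.781 to 0.889 elsewhere. Of the 2 Vdr probe sets, the dimmer passed the Present minimum and was lower in VDRmut than in VDRwt at every treatment, with a log2 difference of -2.01 ± 0.33 (SE) and an adjusted p of 0.142 (limma). The brighter one had 1 Present call and was not tested. Where they lie relative to the deletion is not known here, so they do not check the genotype.

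**Figure D1:**
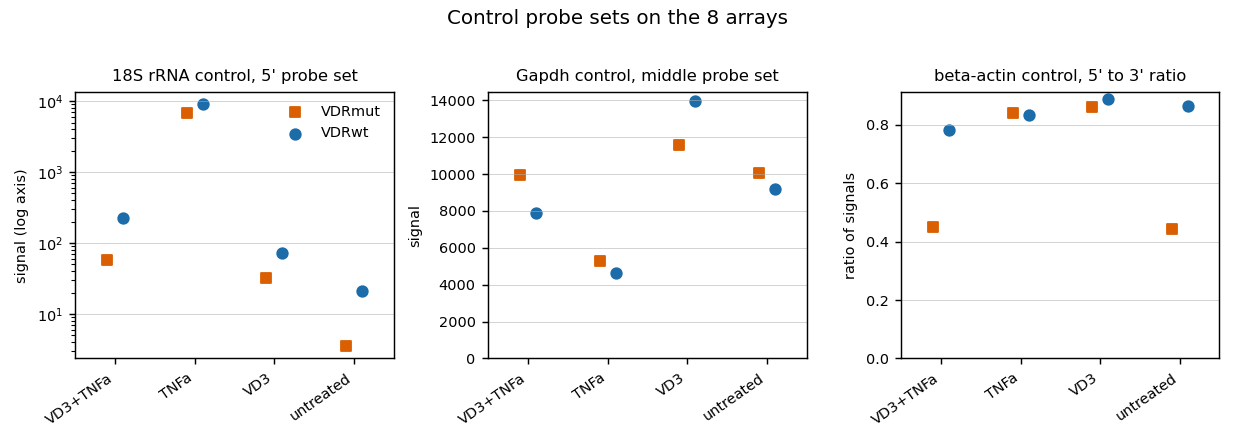
Control probe sets on the 8 arrays by treatment, with VDRmut as squares and VDRwt as circles: the signal of the 18S rRNA 5' control (log axis), the signal of the middle Gapdh control, and the ratio of 5' to 3' beta-actin signal. The 18S control stood at 6847.0 and 9028.2 with TNFa alone, where the Gapdh control had its lowest values, and 2 VDRmut arrays had actin ratios of 0.449 and 0.444.

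With TNFa alone, 12 of the 30 members fell and 1 rose against untreated cells, after 4 h. The genes that fell ran through the pathway: Hk1, Pfkp, Aldoc, Tpi1, Pgam1, Pkm, Ldha and Pdk1 among the metabolic genes, and Egln3, Bnip3, Ero1a and Higd1a among the hypoxia-response genes. Pfkfb3, which makes the allosteric activator of phosphofructokinase, rose 7.66-fold. The test was limma with genotype as a term, adjusted by the Benjamini-Hochberg method over 12832 probe sets, and a gene was called at an adjusted p under 0.05. The members called lower made up 40.0%, against 5.39% of all probe sets, and the 1 called higher 3.33%, against 5.66%. The median log2 change was -0.76 over the members and 0.04 over all probe sets. Lower signals in both genotypes were found for 22 members, against 31.8% of all probe sets.

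Most of these genes were higher when VD3 preceded TNFa than with TNFa alone. In VD3+TNFa against TNFa alone, 15 members were higher, or 50.0% against 3.4% of all probe sets, and Pfkfb3 was lower, where 3.57% of all were. All 13 genes called with TNFa alone were among these 16, with the opposite sign, and Slc2a1, Egln1 and Vegfa joined them. Both comparisons use the arrays with TNFa alone, so they are not independent, and an unusual value on those arrays would move both. The median log2 difference was 1.16 over the members and -0.03 over all probe sets. Both arrays with TNFa alone lay below all 6 others for 17 of 30 members, or 56.7% against 13.6% of all probe sets. They lay above them for Pfkfb3 and Eno2, 6.67% against 14.1%. Eno2 was Present only on the arrays with TNFa alone and entered through them, so its place in that count is not a finding.

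**Figure D2:**
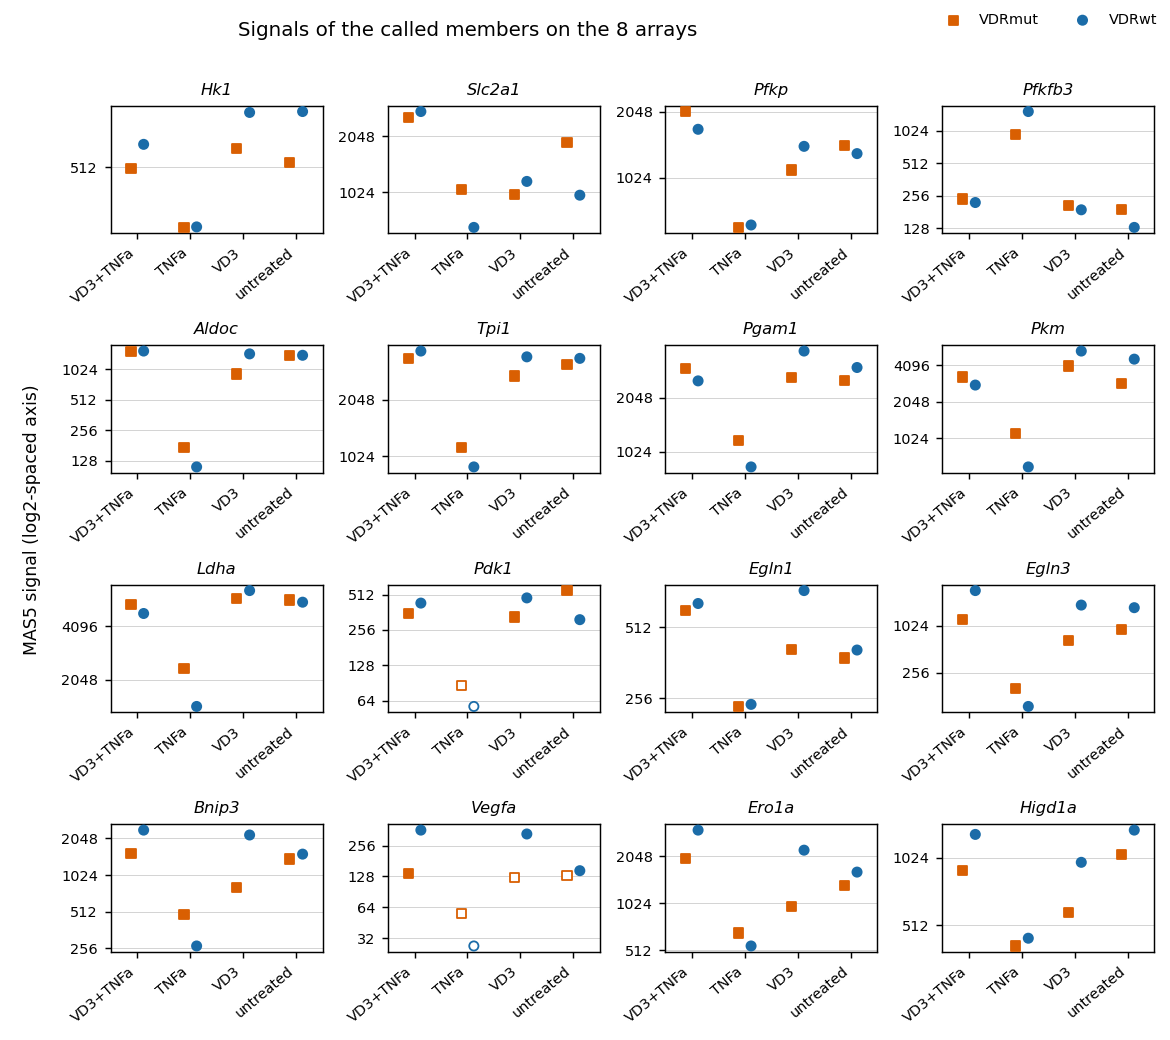
MAS5 signals of the 16 members called in at least 1 comparison, on all 8 arrays (log2-spaced axis, a different range in each panel), by treatment, with VDRmut as squares and VDRwt as circles and open symbols where the array had no Present call. Aldoc lay at 172.3 and 111.8 with TNFa alone and between 923.1 and 1553.7 on the other arrays, and Pfkfb3 ran the other way.

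Glucose enters through Slc2a1, the widely expressed glucose transporter, and is phosphorylated by the hexokinases Hk1 and Hk2. Hk1 gave VDRmut and VDRwt signals of 504.9 and 646.0 with VD3+TNFa, 276.5 and 277.9 with TNFa alone, 618.9 and 895.0 with VD3, and 536.0 and 903.4 untreated. It fell 2.51-fold with TNFa alone (log2 change -1.33 ± 0.24 SE, adjusted p 0.00951, limma) and was 2.06-fold higher with VD3+TNFa than with TNFa alone (adjusted p 0.0330, limma). Its next probe set gave -1.33 and 1.38 without passing (adjusted p 0.0567 and 0.0650). The pair with TNFa alone was the lowest, and VDRmut lay below VDRwt at the other treatments.
Slc2a1 gave VDRmut and VDRwt signals of 2571.4 and 2774.3 with VD3+TNFa, 1060.3 and 665.8 with TNFa alone, 993.8 and 1173.0 with VD3, and 1890.2 and 990.1 untreated. Its highest pair was VD3+TNFa, 3.18-fold above TNFa alone (log2 1.67 ± 0.30, adjusted p 0.0137, limma), while TNFa alone overlapped the untreated pair (log2 -0.70, adjusted p 0.175). Its second probe set was called in both comparisons, at -1.53 (adjusted p 0.0128) and 2.52 (adjusted p 0.00372). Hk2 was called in none, with signals between 520.2 and 1418.7 and its highest on the VDRwt VD3+TNFa array.

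The phosphofructokinase step commits sugar to glycolysis. Of its 3 isoform genes, only the platelet type Pfkp was called. Pfkp gave VDRmut and VDRwt signals of 2048.3 and 1700.3 with VD3+TNFa, 608.1 and 623.7 with TNFa alone, 1110.6 and 1422.0 with VD3, and 1429.1 and 1317.9 untreated. It fell 2.23-fold with TNFa alone (log2 -1.16 ± 0.22, adjusted p 0.0120, limma) and was 3.03-fold higher with VD3+TNFa than with TNFa alone (log2 1.60 ± 0.22, adjusted p 0.00586). The VD3+TNFa pair lay above all other arrays. Pfkl, the liver type, and Pfkm, the muscle type, were called in no comparison, with signals from 318.1 to 972.2 and from 144.0 to 246.1. The second Pfkl probe set gave log2 values near those of Pfkp without passing. It gave -1.37 with TNFa alone (adjusted p 0.0819, limma) and 1.53 in VD3+TNFa against TNFa alone (adjusted p 0.0721).
Pfkfb3 gave VDRmut and VDRwt signals of 240.0 and 222.2 with VD3+TNFa, 947.5 and 1544.2 with TNFa alone, 207.2 and 190.3 with VD3, and 190.7 and 130.8 untreated. It was the 1 member called in the direction opposite to the rest: higher with TNFa alone (log2 2.94 ± 0.30, adjusted p 0.00134, limma), and 5.24-fold lower with VD3+TNFa than with TNFa alone (log2 -2.39 ± 0.30, adjusted p 0.00450). Its other probe set gave 2.08 (adjusted p 0.0149) and -1.48 (adjusted p 0.0704).

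Below that step, aldolase cleaves the sugar and further enzymes lead to pyruvate; 4 of 7 members here fell with TNFa alone, with a median log2 change of -1.49. Aldoc, the brain-type aldolase, gave VDRmut and VDRwt signals of 1549.6 and 1553.7 with VD3+TNFa, 172.3 and 111.8 with TNFa alone, 923.1 and 1456.8 with VD3, and 1401.7 and 1411.3 untreated. It fell 10.1-fold with TNFa alone (log2 -3.34 ± 0.29, adjusted p 0.000931, limma) and was 11.2-fold higher with VD3+TNFa (log2 3.48 ± 0.29, adjusted p 0.000794), the smallest adjusted p among the members in each. A second Aldoc probe set gave log2 values of -3.01 and 3.11. Aldoa, the aldolase of most tissues, ran from 2795.8 to 9853.4, with TNFa alone lowest in both genotypes, but was not called (log2 -0.79, adjusted p 0.109). In VD3+TNFa against TNFa alone it gave 0.84 (adjusted p 0.114, limma), while another of its probe sets passed there, at 1.47 (adjusted p 0.0384).
Tpi1, triose phosphate isomerase, gave VDRmut and VDRwt signals of 3421.4 and 3731.7 with VD3+TNFa, 1145.4 and 899.3 with TNFa alone, 2747.9 and 3475.0 with VD3, and 3161.0 and 3410.7 untreated. It fell 3.24-fold with TNFa alone (adjusted p 0.00287, limma) and was 3.52-fold higher with VD3+TNFa (adjusted p 0.00445). Its other 6 arrays lay between 2747.9 and 3731.7.
Pgam1, phosphoglycerate mutase, gave VDRmut and VDRwt signals of 2984.0 and 2554.4 with VD3+TNFa, 1178.3 and 838.9 with TNFa alone, 2677.0 and 3757.9 with VD3, and 2554.0 and 3037.4 untreated. It fell 2.80-fold (adjusted p 0.00891, limma) and was 2.78-fold higher with VD3+TNFa (adjusted p 0.0129).
Pkm, pyruvate kinase, which makes the pyruvate, gave VDRmut and VDRwt signals of 3265.6 and 2802.0 with VD3+TNFa, 1118.5 and 591.0 with TNFa alone, 4017.6 and 5348.0 with VD3, and 2868.6 and 4585.7 untreated. It fell 4.46-fold (log2 -2.16 ± 0.34, adjusted p 0.00620, limma) and was 3.72-fold higher with VD3+TNFa (log2 1.90 ± 0.34, adjusted p 0.0141). Again the groups did not overlap.
Pgk1, phosphoglycerate kinase, differed between its probe sets: the chosen one ran from 4431.9 to 7910.7 and was not called (log2 -0.27, adjusted p 0.448), while the others fell with TNFa alone by 1.01 (adjusted p 0.0216) and 1.66 on the log2 scale (adjusted p 0.00307). Eno2, the neuron-type enolase, gave VDRmut and VDRwt signals of 48.7 and 14.8 with VD3+TNFa, 70.2 and 129.9 with TNFa alone, 19.6 and 24.0 with VD3, and 29.4 and 16.2 untreated. Only the TNFa alone pair had Present calls, so it entered through that pair, and its change (at least 4.38-fold, adjusted p 0.0575) was not called.

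Pyruvate is reduced to lactate by lactate dehydrogenase or oxidised by pyruvate dehydrogenase, which the kinases Pdk1 and Pdk3 switch off. Ldha, the subunit that favours lactate, gave VDRmut and VDRwt signals of 5444.3 and 4845.1 with VD3+TNFa, 2381.9 and 1452.7 with TNFa alone, 5856.7 and 6520.2 with VD3, and 5769.2 and 5609.0 untreated. It fell 3.06-fold with TNFa alone (log2 -1.61 ± 0.24, adjusted p 0.00454, limma) and was 2.76-fold higher with VD3+TNFa (log2 1.47 ± 0.24, adjusted p 0.00967). Ldhb, the other subunit, was dim, between 153.8 and 446.5, and its probe sets disagreed in sign.
Pdk1 gave VDRmut and VDRwt signals of 351.5 and 433.5 with VD3+TNFa, 86.4 and 57.0 with TNFa alone, 329.5 and 480.0 with VD3, and 554.3 and 313.2 untreated. Neither array with TNFa alone had a Present call on this probe set. By it, Pdk1 was at least 5.94-fold lower than in untreated cells (adjusted p 0.00316, limma). It was at least 5.56-fold higher with VD3+TNFa (adjusted p 0.00626). An Absent signal is a measured value, so these are estimates against it and do not bound the gene's change. The other Pdk1 probe set, Present on all 8 arrays, gave smaller log2 values of -1.82 (adjusted p 0.0130) and 2.23 (adjusted p 0.00846). Pdk3 and Pdha1, the catalytic alpha subunit of pyruvate dehydrogenase, were called in no comparison, with signals from 247.4 to 391.6 and from 534.1 to 1011.6.
Slc16a3, the main lactate exporter of glycolytic cells, gave VDRmut and VDRwt signals of 709.5 and 612.3 with VD3+TNFa, 369.9 and 197.9 with TNFa alone, 1387.3 and 1843.9 with VD3, and 422.0 and 1518.1 untreated. The untreated genotypes lay far apart, and its log2 change with TNFa alone of -1.57 ± 0.51 was not called (adjusted p 0.0872).

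**Figure D3:**
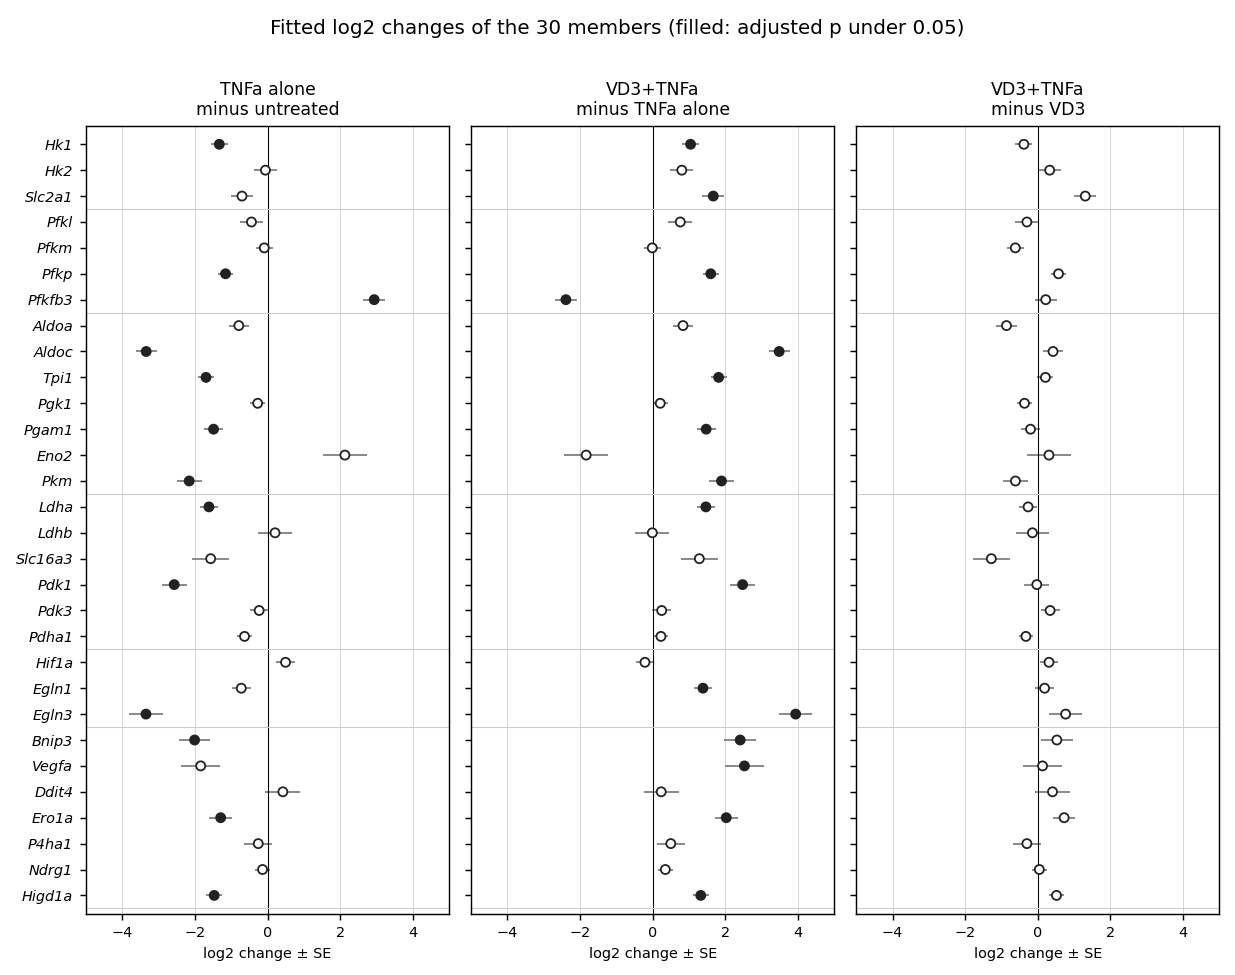
Fitted log2 changes of the 30 members with standard errors, ordered by role, for TNFa alone minus untreated, VD3+TNFa minus TNFa alone, and VD3+TNFa minus VD3, with filled points at an adjusted p under 0.05 (limma, Benjamini-Hochberg). The first panel has 13 filled points, the second 16 and the third 0.

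Hif1a, the oxygen-regulated HIF subunit, was itself not called: its signals ran from 1005.4 to 2112.9, and its log2 change with TNFa alone was 0.50 ± 0.25 (adjusted p 0.251). Its control lies largely in protein stability, which these arrays do not measure. Of the prolyl hydroxylases, Egln3 fell by about as much as Aldoc. Egln3 gave VDRmut and VDRwt signals of 1238.1 and 2879.7 with VD3+TNFa, 161.4 and 94.2 with TNFa alone, 656.7 and 1877.2 with VD3, and 905.0 and 1738.4 untreated. It fell 10.2-fold with TNFa alone (log2 -3.35 ± 0.46, adjusted p 0.00350, limma) and was 15.3-fold higher with VD3+TNFa (log2 3.94 ± 0.46, adjusted p 0.00383). VDRmut lay below VDRwt except with TNFa alone, and the second Egln3 probe set gave -3.30 and 4.02.
Egln1, the main oxygen-dependent hydroxylase of HIF, gave VDRmut and VDRwt signals of 603.8 and 644.8 with VD3+TNFa, 236.5 and 241.3 with TNFa alone, 410.4 and 731.3 with VD3, and 379.2 and 409.8 untreated. It was called in VD3+TNFa against TNFa alone (2.61-fold higher, log2 1.39 ± 0.25, adjusted p 0.0146, limma) and not in TNFa alone against untreated (log2 -0.72, adjusted p 0.106). Its other probe set was not called in the first of these, at 0.67 (adjusted p 0.245), so that call rests on 1 probe set.

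Among 7 other hypoxia-response genes, 3 fell with TNFa alone. Bnip3, a receptor for the removal of mitochondria, gave VDRmut and VDRwt signals of 1538.1 and 2399.4 with VD3+TNFa, 488.8 and 267.6 with TNFa alone, 814.9 and 2187.0 with VD3, and 1390.0 and 1522.6 untreated. It fell 4.02-fold with TNFa alone (log2 -2.01 ± 0.43, adjusted p 0.0202, limma) and was 5.31-fold higher with VD3+TNFa (log2 2.41 ± 0.43, adjusted p 0.0138).
Ero1a, the oxidase that supports disulfide formation in the endoplasmic reticulum, gave VDRmut and VDRwt signals of 1990.0 and 3016.2 with VD3+TNFa, 661.5 and 546.7 with TNFa alone, 979.1 and 2244.0 with VD3, and 1330.8 and 1624.4 untreated. It fell 2.45-fold (adjusted p 0.0317, limma) and was 4.07-fold higher with VD3+TNFa (log2 2.03 ± 0.31, adjusted p 0.00788).
Higd1a, a mitochondrial protein induced by hypoxia, gave VDRmut and VDRwt signals of 899.7 and 1296.7 with VD3+TNFa, 414.7 and 448.9 with TNFa alone, 585.9 and 974.9 with VD3, and 1052.8 and 1355.1 untreated. It fell 2.77-fold (adjusted p 0.00456, limma) and was 2.50-fold higher with VD3+TNFa (adjusted p 0.0102), but its second probe set gave 0.14 with TNFa alone (adjusted p 0.839) and 0.38 with VD3+TNFa (adjusted p 0.566), so each Higd1a call rests on 1 of its probe sets.
Vegfa, the angiogenic growth factor, gave VDRmut and VDRwt signals of 136.5 and 362.2 with VD3+TNFa, 55.5 and 26.8 with TNFa alone, 124.3 and 331.9 with VD3, and 131.1 and 145.5 untreated. It was Present on 4 arrays, neither of those with TNFa alone, and was at least 5.77-fold higher with VD3+TNFa than with TNFa alone (adjusted p 0.0266, limma); against untreated cells it was not called (log2 -1.84 ± 0.54, adjusted p 0.0608). Its other probe set lost the call, at 2.14 (adjusted p 0.168). Ddit4, an inhibitor of mTORC1, P4ha1, a collagen prolyl hydroxylase subunit, and Ndrg1 were called in no comparison, with signals of 132.6 to 467.4, 188.1 to 622.6 and 408.3 to 684.0.

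These calls depended on the arrays with TNFa alone and on few degrees of freedom. Both such arrays carried the high 18S signal, the low Gapdh control and Itgax signals and the high Cd83, Cd86, Irf8, Zbtb46 and Flt3 signals, so the treatment and whatever set those values cannot be told apart here. The part of the neutrophil, macrophage and mast cell markers in the result was not tested. Scan day, given for VDRwt only, differed between its arrays with and without TNFa, so VD3+TNFa and TNFa alone shared a day there. The protocol recorded for the VDRwt VD3+TNFa array, however, differed from that of the other VDRwt arrays, and none is given for VDRmut. The part of that protocol in the result was not tested. As VDRwt VD3+TNFa and TNFa alone shared a day, a scan-day block cannot move the fitted difference between them. Calls over all probe sets also changed. With that block they went from 1418 to 341 with TNFa alone, and from 894 to 750 in VD3+TNFa against TNFa alone. They changed in both comparisons when arrays were left out too. Members called with TNFa alone numbered 8 with scan day as a block (16 in VD3+TNFa against TNFa alone) and 6 when the VDRwt TNFa array was dropped. Dropping that array left 5 calls in VD3+TNFa against TNFa alone, as did dropping the VDRwt VD3+TNFa array, and dropping its VDRmut partner left 4. With the pair of VDRmut arrays of low actin ratio left out, the counts were 15 and 15.

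The test of the difference between the TNFa responses with and without VD3 called 7 members, 6 higher (20.0%, against 0.959% of all probe sets) and Pfkfb3 lower (3.33%, against 0.81%). The differences in log2 response were 4.11 for Egln3 (adjusted p 0.0267), 3.76 for Aldoc (adjusted p 0.00649) and 2.54 for Pdk1 (adjusted p 0.0425), all by limma. They were 1.98 for Higd1a (adjusted p 0.0256), 1.90 for Tpi1 (adjusted p 0.0269), 1.73 for Pfkp (adjusted p 0.0331) and -2.72 for Pfkfb3 (adjusted p 0.0249). The Higd1a call rests on 1 probe set, as the second gave 0.05 (adjusted p 0.966). Slc2a1, at 2.01 (adjusted p 0.0521), and Ero1a, at 2.02 (adjusted p 0.0587), lay just outside the threshold. Of their other probe sets, 1 of each passed by limma, at 2.43 (adjusted p 0.0284) and 2.025 (adjusted p 0.0466). The remaining ones did not, at 1.08 (adjusted p 0.193) and 1.81 (adjusted p 0.0551). For Pgk1, 1 probe set passed at 2.90 (adjusted p 0.00649). The chosen one gave -0.09 (adjusted p 0.887) and the last 0.83 (adjusted p 0.188). The count of 7 uses the chosen probe set of each gene. This count was the least stable: leaving out the VDRmut TNFa array gave 12, and leaving out its VDRwt partner 2. Dropping the VDRmut untreated array gave 2, either VDRwt array that had VD3 gave 1, and either VDRmut array that had VD3 gave 0. With the pair of low actin ratio left out it was 3.

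On cells that had received VD3, TNFa made no called difference among the members: VD3+TNFa against VD3 called 0 of 30 by limma, where 0.639% of all probe sets were higher and 0.164% lower, and 7 members had an unadjusted p under 0.05, against 22.3% of all. The members' median log2 difference was 0.16. Slc2a1 came nearest, at 1.31 ± 0.30 (adjusted p 0.0703), and Slc16a3 and Aldoa had values of -1.28 (adjusted p 0.190) and -0.86 (adjusted p 0.127). Leaving out either untreated array raised the count, among the members and over all probe sets. The lone untreated array was then taken to vary like the other groups.

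VD3 by itself also called 0 of 30 members against untreated cells by limma, and 0% of all probe sets. Before adjustment 2 members had p under 0.05, against 7.61% of all: Aldoa at 0.91 and Higd1a at -0.66 in log2, both with an adjusted p of 0.629. In VDRwt cells, 26 of 30 members were higher with VD3 than untreated, against 51.6% of all probe sets, and in VDRmut cells 15 of 30, against 53.4%; each is 1 pair of arrays, with no test. Median log2 differences were -0.03 in VDRmut and 0.30 in VDRwt.

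The VDRmut and VDRwt cells were compared to see whether the members followed the receptor's genotype. Over the 4 matched pairs, 0 of 30 members were called by limma, against 0.0623% of all probe sets, and 4 had an unadjusted p under 0.05, against 7.37%: Higd1a at -0.44, Hk1 at -0.41, Hif1a at -0.40 and Ndrg1 at -0.35 in log2. The value was negative for 20 of 30 members, with a median of -0.06, beside 0.0048 over all probe sets. The 7 other hypoxia-response genes, all negative, had a median of -0.44. Summed neutrophil granule markers were higher in VDRmut at every treatment, and their part in the genotype comparisons was not tested. Whether VD3 acted differently in the genotypes was tested over both TNFa states. No member (0 of 30) and 0% of all probe sets were called (adjusted p 0.9999 for each member, limma), but 10 members had an unadjusted p under 0.05, all lower in VDRmut, or 33.3% against 1.17% of all. The fitted value was negative for 24 of 30, against 50.0% of all, with a median of -0.38.

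Those 10 held 5 of 7 other hypoxia-response genes, 2 of 3 genes of HIF and its hydroxylases, 2 of 3 genes of glucose uptake and phosphorylation and 1 of 6 genes of pyruvate fate, and none of the 4 genes of the phosphofructokinase step or the 7 of lower glycolysis. The VD3 effect in VDRmut minus that in VDRwt was -1.86 ± 0.48 for Vegfa, -1.68 ± 0.41 for Ddit4 and -1.40 ± 0.43 for Bnip3 in log2. It was -1.28 ± 0.52 for Egln3, -1.22 ± 0.41 for P4ha1, -1.13 ± 0.34 for Pdk1, -1.04 ± 0.31 for Hk2, -0.98 ± 0.30 for Slc2a1, -0.89 ± 0.36 for Ero1a and -0.72 ± 0.30 for Hif1a. Ddit4 gave VDRmut and VDRwt signals of 156.2 and 467.4 with VD3+TNFa, 224.0 and 235.3 with TNFa alone, 138.6 and 300.4 with VD3, and 221.4 and 132.6 untreated. VD3 thus went with a lower Ddit4 signal in VDRmut and a higher one in VDRwt, with and without TNFa, on 1 array each. Leaving out 1 array at a time left 21 to 26 members negative and 4 to 14 lower at an unadjusted p under 0.05; the 4 came without either VD3 array. No member passes the adjusted threshold, and the adjusted p does not show that the genotypes act alike.

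The difference between VD3+TNFa and TNFa alone was seen in the VDRmut pair of arrays too. Each genotype gives 1 such pair, with no test, and the VDRmut VD3+TNFa array had the low actin ratio of 0.449. The treatment cannot be told apart here from whatever set the unusual control signals with TNFa alone. With VD3+TNFa against TNFa alone, 22 of 30 members were higher in VDRmut (47.6% of all probe sets) and 28 in VDRwt (49.4%), and 14 in VDRmut (5.87%) and 19 in VDRwt (7.12%) were higher by at least 1 in log2. Aldoc was higher by 3.17 in VDRmut and 3.80 in VDRwt, Egln3 by 2.94 and 4.93, and Pdk1 by 2.02 and 2.93 in VDRmut and VDRwt. Tpi1 differed by 1.58 in VDRmut and 2.05 in VDRwt, while Vegfa differed by 1.30 in VDRmut and 3.76 in VDRwt. The TNFa effect by genotype called 0 of 30 members and 0% of all probe sets by limma. Before adjustment 4 members (13.3%) had p under 0.05, against 4.82% of all. The TNFa effect in VDRmut minus that in VDRwt was positive for each: 1.69 for Slc16a3, 1.115 for Pkm, 0.89 for Pfkl and 0.73 for Pgam1 in log2. Its median was 0.33 over the members and -0.05 over all probe sets.

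**Figure D4:**
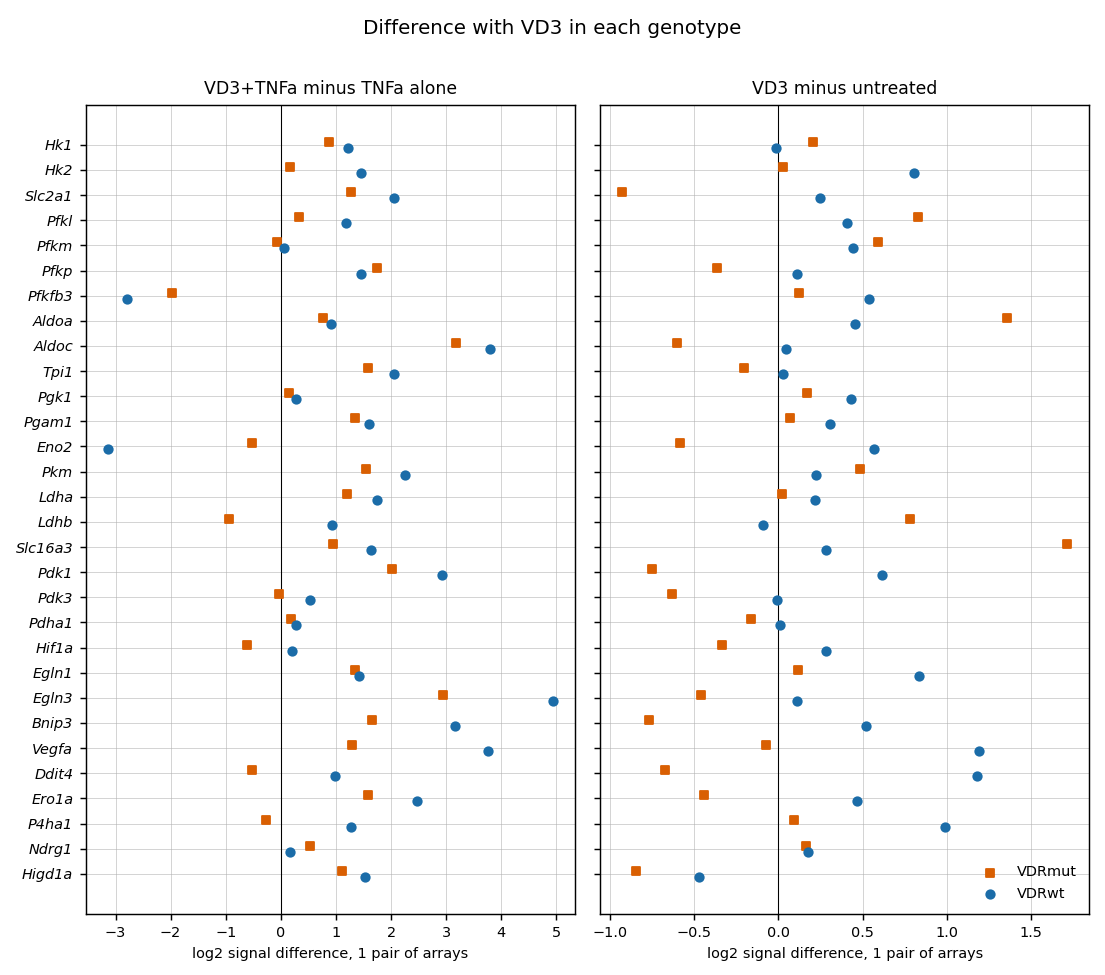
Log2 signal difference with VD3 for each member, VDRmut as squares and VDRwt as circles, in TNFa-treated cells (left) and without TNFa (right), each point 1 pair of arrays with no error. On the left 22 VDRmut and 28 VDRwt points lie above 0, and on the right 15 VDRmut and 26 VDRwt points do.

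Neighbouring pathways outside the members were described by the same fit. Of 16 tested among 28 listed genes of glucose and pyruvate use, 0 rose and 3 fell with TNFa alone: Pygl, which breaks down glycogen (log2 -2.11, adjusted p 0.00187), Gys1, which builds it (at least 5.94-fold lower, adjusted p 0.0148), and Pgp, a phosphatase of glycolytic side products (-1.27, adjusted p 0.00838), by limma. Pygl gave VDRmut and VDRwt signals of 2061.4 and 2109.7 with VD3+TNFa, 617.0 and 402.1 with TNFa alone, 2183.1 and 2567.5 with VD3, and 2048.4 and 2247.5 untreated. These 3 and Slc16a1, another lactate transporter, were higher with VD3+TNFa than with TNFa alone. Of 6 tested among 9 listed pentose phosphate genes, Tkt, Pgd and Taldo1 fell with TNFa alone, at -1.48, -1.38 and -0.88 (adjusted p 0.00377, 0.00551 and 0.0469, limma), and Tkt and Pgd were higher with VD3+TNFa. The list medians with TNFa alone were -0.62 for glucose and pyruvate genes and -0.83 for pentose phosphate genes, beside 0.04 over all probe sets. Over all probe sets 5.66% were called higher and 5.39% lower with TNFa alone. In VD3+TNFa against TNFa alone 3.4% were called higher and 3.57% lower.
Of 29 tested among 40 listed HIF pathway and hypoxia-response genes outside the members, 1 rose and 6 fell with TNFa alone, with a median of -0.13. Over all probe sets 5.66% rose and 5.39% fell, so the 1 that rose is not above the common share. Mif, a cytokine, fell 4.86-fold (adjusted p 0.00235, limma), the metallothioneins Mt1 and Mt2 fell 3.14-fold and 3.61-fold, and Selenbp1, Plod1 and P4hb also fell. Cxcr4, a chemokine receptor that HIF can induce, rose 4.84-fold (adjusted p 0.00152). Cxcr4 gave VDRmut and VDRwt signals of 301.3 and 449.7 with VD3+TNFa, 1086.9 and 1557.0 with TNFa alone, 375.3 and 347.8 with VD3, and 246.7 and 292.5 untreated, so that TNFa alone was highest in both genotypes, as for Pfkfb3. With VD3+TNFa against TNFa alone, Ak4, P4hb, Mif and Selenbp1 were higher and Cxcr4 lower, where 3.4% of all probe sets were higher and 3.57% lower.

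Of 20 members with several probe sets, 18 kept 1 sign over all of them with TNFa alone, the exceptions being Ldhb and Higd1a, and 18 did in VD3+TNFa against TNFa alone, the exceptions being Ldhb and Hif1a. For VD3 by TNFa it was 15 of 20, the exceptions being Aldoa, Pgk1, Ldhb, Hif1a and Egln1.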

How the data were processed

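RNA of 8 dendritic cell samples was hybridised, each to 1 MOE430A array. For each of 22690 probe sets the authors deposited a signal intensity, on a linear scale, with its detection call, per the file headers; MAS5 is named in the submitters' processing notes with no version given, and the genome build is not given in the sources used here. Groups came from the sample titles.

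Intensities were scaled to a common 2% trimmed mean, floored at 0.1 (3 values) and put on the log2 scale. The 64 control probe sets were left out, and the 12832 probe sets called Present on 2 arrays or more were tested with limma 3.58.1 in R 4.3.3 (lmFit on genotype and 4 treatments, eBayes with a trend, 3 residual degrees of freedom). A genotype interaction was added as 1 coefficient (2 residual degrees of freedom). Benjamini-Hochberg adjustment ran over all probe sets. No label says that arrays stem from separate animals, so the p-values cannot be read as measuring animal-to-animal spread. With 1 array per condition, the residual mixes array-to-array spread, possibly technical, with any unfitted genotype difference in treatment response. The number of arrays limits the precision. Genes were named from the platform annotation, through RefSeq synonyms where needed. "At least" marks a change whose dimmer side had no Present call on the probe set used, and other probe sets of the gene can give smaller changes.

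Every kept member is named, with signals on all arrays for those called or with a log2 change of at least 1; Ddit4's signals were added after its values were seen. The members, the lists and the tests were chosen with earlier results of these data known. The fits were tested on simulated data. Alternatives were another normalization, floor, filter, variance model and probe set, scan day as a block, no genotype term, the series matrix values, and leaving out arrays.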

Additional observations from a re-analysis of the deposited data

Results flagged for a closer look

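The TNFa response differed between cells with and without VD3, by limma's test of that difference, for 7 members. The difference in log2 response, with VD3 minus without, was 4.11 for Egln3, 3.76 for Aldoc, 2.54 for Pdk1, 1.98 for Higd1a, 1.90 for Tpi1, 1.73 for Pfkp and -2.72 for Pfkfb3. In the next brightest probe set the call held for Aldoc, Pdk1, Tpi1 and Pfkp. It was lost for Egln3, at 3.35 (adjusted p 0.0954, limma), Pfkfb3, at -2.83 (adjusted p 0.0520), and Higd1a, at 0.05 (adjusted p 0.966).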

How the results depend on the processing

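Of 36 calls of a member in a comparison, 36 held under quantile normalization, 36 with Present calls on at least 4 arrays and 36 with the series matrix values. The number was 31 without a genotype term, 29 with scan day as a block, 28 with no detection filter, 22 without the variance trend and 5 with a signal floor of 50. The scan-day block cannot move the fitted values of VD3+TNFa against TNFa alone or VD3 by TNFa, only their spread. The calls held there are therefore no check on scan day. With 1 array left out, 13 (the VDRwt TNFa array) to 34 held. None of these settings changed a sign. With the next brightest probe set, 18 of 28 held, 9 lost the threshold, and Higd1a turned to 0.14 with TNFa alone. The count for TNFa alone was 4 with the floor of 50, 8 with scan day as a block and 6 to 15 when 1 array was left out. The count for VD3+TNFa against TNFa alone was 1 with that floor, 10 without the trend and 4 to 18 with 1 array left out. The count for VD3 by TNFa was 0 with that floor, 2 with no detection filter, 1 without the trend, 4 without a genotype term, 3 without both arrays of low actin ratio and 0 to 12 with 1 array left out. VD3+TNFa against VD3 gave 0 to 3. Calls over all probe sets shifted in these settings too. With TNFa alone they numbered 1418 in the main fit, 512 with the floor of 50 and 341 with scan day as a block. In VD3+TNFa against TNFa alone they were 894, then 96 with that floor and 418 without the trend. For VD3 by TNFa they were 227, then 10 with that floor and 56 (of 22626 tested) with no detection filter. They were 37 without the trend and 127 without a genotype term. The cause of these shifts was not tested. A lone array left in a group was assumed to vary like the others. Quantile normalization moved the median of all probe sets by over 0.1 for VD3+TNFa against VD3 (-0.07 to 0.04) and VD3 by TNFa (-0.08 to 0.06). The fit already matched arrays by treatment and genotype; the labels carry no replicate number to block on. VD3 by genotype and TNFa by genotype could not be fitted without both arrays of low actin ratio, nor TNFa by genotype with the scan-day block. Dim genes (Eno2, Vegfa, Pdk1 with TNFa alone) were limited by signal over background.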
